A study of Mus musculus with 2 samples.

Results

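The miR-99/100 and miR-125 genes are 6 microRNA (miRNA) genes, Mir99a, Mir99b, Mir100, Mir125a, Mir125b-1 and Mir125b-2, which lie at 3 related loci on chromosomes 16, 9 and 17 of the mouse. They were taken from the deposited tables by Ensembl identifier, through the gene symbols of GENCODE, and are 6 of 1973 miRNA genes measured. Their identifiers are ENSMUSG00000065530.1 (Mir99a), ENSMUSG00000065396.1 (Mir99b), ENSMUSG00000093011.1 (Mir100), ENSMUSG00000065479.1 (Mir125a), ENSMUSG00000093354.1 (Mir125b-1) and ENSMUSG00000065472.1 (Mir125b-2). The data are small RNA sequencing libraries, for which the labels give a size range below 30 bases. They come from neural tubes of B6NCrl mice at postnatal day 0. There was 1 group of 2 libraries, 1 from the single neural tube of each of 2 pups of the same pregnancy, whose sex is given as not collected. The labels name no treatment or altered allele. With 1 group there was no comparison between conditions, so the levels describe this tissue and the spread is that between 2 littermates. In whole tissue, fewer cells that use a gene and less RNA per cell cannot be told apart.

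A miRNA gene is transcribed as a longer RNA, cut to a short hairpin and then to a mature strand that guides Argonaute proteins to messenger RNAs. Pairing rests mainly on the seed, bases 2 to 8 of the mature strand. miR-100 belongs to one of the most widely conserved animal miRNA families and is a sequence relative of miR-10. miR-125 is the vertebrate counterpart of lin-4, the miRNA that times larval development in worms. In flies and vertebrates, genes of both families stand with a let-7 gene in 1 cluster, and miR-125b is known from neurons and their differentiation.

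The mature 5p strands (from the left arm of the hairpin) show how the genes relate, and are given from RefSeq (GRCm38.p6) in lower case with the seed in capitals.
miR-99a-5p, gene Mir99a: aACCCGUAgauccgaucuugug
miR-100-5p, gene Mir100: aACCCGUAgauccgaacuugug
miR-99b-5p, gene Mir99b: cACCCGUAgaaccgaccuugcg
miR-125a-5p, gene Mir125a: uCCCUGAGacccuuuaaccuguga
miR-125b-5p, genes Mir125b-1 and Mir125b-2: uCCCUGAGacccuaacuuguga

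All 3 miR-99/100 strands carry the seed ACCCGUA, which none of the other strands among the 1738 mature miRNAs of the table had. miR-99a-5p and miR-100-5p, both of 22 bases, differ only by U16A, counted from 1 at the 5′ end of miR-99a-5p. miR-99a-5p and miR-99b-5p differ by 4 substitutions, A1C, U11A, U16C and U21C, all outside the seed. The miR-125 seed CCCUGAG occurred in 6 genes of the table, the 3 miR-125 genes and Mir351, Mir6367 and Mir6394. miR-125a-5p, with 24 bases, is 3 edits (substituted, added or lost bases) away from miR-125b-5p. Between the families the 5p strands of the 6 genes were at least 7 edits apart.

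The 3p strands, from the right arm of the hairpin, are shown for the miR-125b genes because they tell the genes apart where the 5p strand cannot.
miR-125b-1-3p, gene Mir125b-1: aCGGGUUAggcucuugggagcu
miR-125b-2-3p, gene Mir125b-2: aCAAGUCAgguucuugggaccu

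The 2 genes make the same 22-base 5p strand, so a read that lies wholly within it fits both places. In these tables, reads placed in more than 1 position form a class of their own, outside every gene, with 35.7% of all reads in pup 1 and 35.4% in pup 2. The counts of Mir125b-1 and Mir125b-2 therefore hold no read that lies wholly within the shared strand, and are not levels of mature miR-125b. How many reads this left out was not tested. Of the 12 mature strands of the 6 genes (5p and 3p), these 2 copies were the ones whose first 18 bases occurred in another gene of the RefSeq table, on either strand. That table held 927 of the measured genes, and the genome outside it was not searched. The strands of Mir99a, Mir100, Mir99b and Mir125a had no such match, although the 5p strands of Mir99a and Mir100 differ at 1 base. How many mismatches the placement of reads allowed is not given in the sources used here, so reads may have been exchanged between Mir99a and Mir100, which was not tested.

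RefSeq held the hairpins of 4 of the genes, given here with both mature strands in capitals to show where they sit.
Mir99a hairpin: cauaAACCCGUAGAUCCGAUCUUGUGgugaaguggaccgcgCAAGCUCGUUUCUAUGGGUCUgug
Mir100 hairpin: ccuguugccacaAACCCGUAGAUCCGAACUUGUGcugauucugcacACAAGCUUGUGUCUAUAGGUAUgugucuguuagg
Mir125b-1 hairpin: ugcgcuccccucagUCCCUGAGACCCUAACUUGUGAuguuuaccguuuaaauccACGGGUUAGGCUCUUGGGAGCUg
Mir125a hairpin: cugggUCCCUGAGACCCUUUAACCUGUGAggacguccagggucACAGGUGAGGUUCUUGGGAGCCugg

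The loop between the mature strands had 15 bases in Mir99a, 12 in Mir100, 18 in Mir125b-1 and 14 in Mir125a. Counts were given per gene, so reads of the 5p and the 3p strand were not told apart.

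At each locus a miR-99/100 gene is followed by a let-7 gene and then by a miR-125 gene, all on the plus strand (mm10, positions from GENCODE M21). On chromosome 16, Mir99a lies at 77598936 to 77599000, Mirlet7c-1 at 77599657 to 77599750 and Mir125b-2 at 77646273 to 77646343. All 3 are in introns of the noncoding gene Mir99ahg, and Mir99a and Mirlet7c-1 also lie opposite an intron of Gm11146. The end of Mir125b-2 also overlaps the start of an exon of the unclassified transcript C130023A14Rik, on the same strand. On chromosome 9, Mir100 lies at 41531425 to 41531504, Mirlet7a-2 at 41536716 to 41536811 and Mir125b-1 at 41581926 to 41582002. These are in introns of the noncoding genes 3110039I08Rik (Mir100hg in RefSeq) and Gm49317, and Mir125b-1 is also within an exon of the sense-intronic RNA Gm28119. Mir100 lies opposite an exon of the noncoding RNA Gm48742. On chromosome 17, Mir99b lies at 17830188 to 17830257, Mirlet7e at 17830352 to 17830444 and Mir125a at 17830812 to 17830879. These are within Spaca6, a gene of a sperm protein: Mir99b and Mirlet7e in introns, and Mir125a partly overlapping an annotated exon.

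The order is shared but the spacing is not. Between the miR-99/100 gene and the miR-125 gene lay 47272 bases on chromosome 16, 50421 bases on chromosome 9 and 554 bases on chromosome 17. The let-7 gene stood 656, 5211 and 94 bases after the miR-99/100 gene, respectively.

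**Figure D1:**
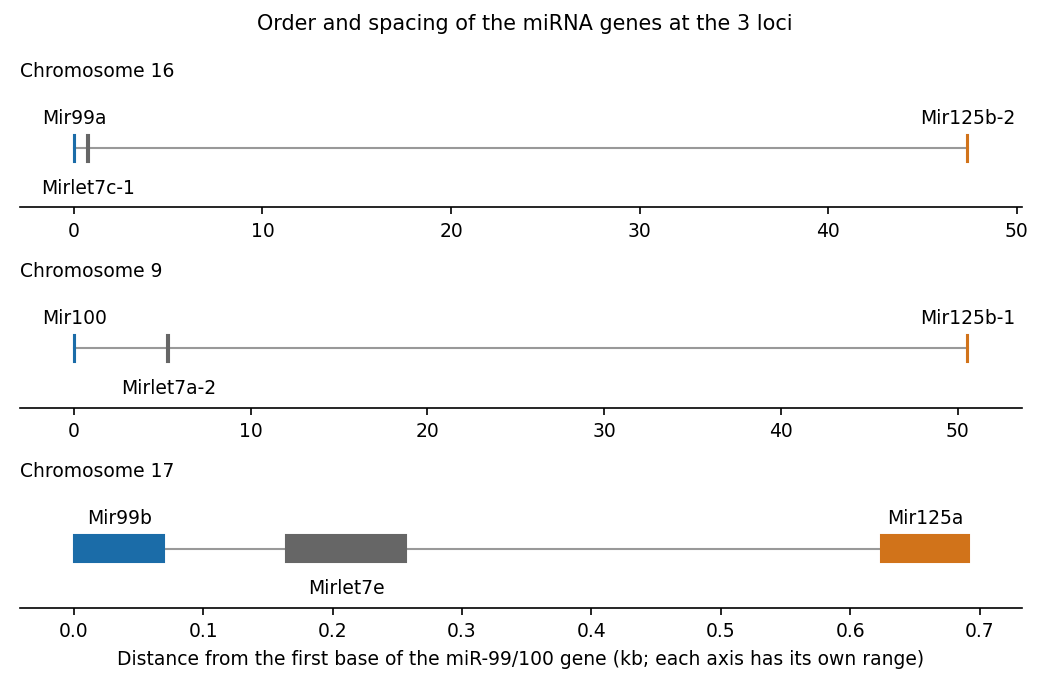
Order and spacing of the miRNA genes at the loci of chromosomes 16, 9 and 17, drawn to scale within each panel; the horizontal axis is the distance in kb from the first base of the miR-99/100 gene and has its own range in each panel. The gene order is the same, and the chromosome 17 locus spans 0.692 kb against 47.4 kb and 50.6 kb.

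Depth was similar in the libraries: own-strand counts over all miRNA genes came to 3216453 in pup 1 and 3660693 in pup 2 (50.6% and 50.8% of all reads). Of the 1973 genes, 352 reached 10 counts in each pup and are called detected here, and all 6 genes described were among them. Of 13 measured genes of a list of neural miRNAs, 10 were detected, and the list held 2.47% ± 0.248 of the counts (SD, n = 2). None of the 13 was at 0, but the neuronal gene Mir124a-2 had 4 and 3 counts, Mir124a-3 had 7 and 10, Mir124a-1 had 20 and 50, and Mir9-2 had 3 and 7, while Mir137 had 48332 and 62690 (pup 1 and pup 2). These are uniquely placed reads, and miR-9 and miR-124 are each made by several gene copies: 7 of the 10 neural genes with a RefSeq entry have a mature strand that occurs whole in another gene. The neural share is therefore no measure of the mature miRNAs, and low counts of such genes do not show that they are absent. Markers of other tissues were present too: endothelial Mir126a held 2.69% ± 0.129, and the mesenchyme list (5 of 6 detected) 1.07% in pup 1 and 1.14% in pup 2. The blood list (4 of 4) held 0.0532% ± 0.00599 and the epithelial list (4 of 6) 0.0496% ± 0.00141. Most of the epithelial share came from Mir203, with 1412 counts in pup 1 and 1681 in pup 2. Mir429, the next highest of that list, had 89 and 82. Muscle genes (1 of 5) held 0.00880% ± 0.00247, with Mir1a-1, Mir133a-1 and Mir133a-2 at 0, and Mir122 of liver 0.00842% ± 0.00283. Since miR-1 and miR-133a also have several gene copies, these zeros and the muscle share do not show how much muscle RNA was present. The part of these tissues in the levels below was not tested.

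Together the 6 genes held 14.3% of the own-strand counts in pup 1 (459465 counts, exact 95% binomial interval 14.2 to 14.3%) and 13.6% in pup 2 (496856 counts, 13.5 to 13.6%). Each interval rests on 1 library and treats its reads as independent, so it covers counting error at most. No molecular identifiers are stated, so repeated reads of 1 molecule cannot be told apart and intervals may be too narrow. The 3 miR-99/100 genes held 94.8% ± 0.357 of these counts (SD, n = 2), and the 3 miR-125 genes 4.96% in pup 1 and 5.47% in pup 2. By locus, the chromosome 16 genes held 78.2% and 76.5%, those of chromosome 9 12.7% and 12.8%, and those of chromosome 17 9.10% and 10.7%. Mir99a alone thus set most of the sum: the other 5 genes held 3.30% of all own-strand counts in pup 1 and 3.36% in pup 2. Reads wholly within the shared miR-125b strand are in none of these counts. The shares by family and by locus are therefore those of uniquely placed reads only.

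Among the miR-99/100 genes, Mir99a had 353219 counts in pup 1 and 373734 in pup 2. In CPM, counts scaled to an own-strand total of 1000000, this was 109816 and 102094, with a mean of 105955 ± 5461 (SD, n = 2). The gene held rank 3 of all genes in both pups, a rank by uniquely placed reads, in which genes with shared mature strands stand too low. Mir100 had 55244 and 60009 counts, or 17175 and 16393 CPM, with a mean of 16784 ± 553 CPM. Its rank was 9 in pup 1 and 11 in pup 2. Mir99b, the one whose 5p strand differs most from the others, had 28206 and 35952 counts, or 8769 and 9821 CPM, with a mean of 9295 ± 744 CPM. Both values of Mir99a lay above those of Mir100, and these above those of Mir99b, with no overlap.

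Among the miR-125 genes, Mir125a had the most uniquely placed reads. It had 13588 counts in pup 1 and 17142 in pup 2, or 4225 and 4683 CPM, with a mean of 4454 ± 324 CPM and rank 38. Mir125b-2 had 6043 and 6205 counts, or 1879 and 1695 CPM, with a mean of 1787 ± 129.9 CPM and rank 72. Mir125b-1 had 3165 and 3814 counts, or 984 and 1042 CPM, with a mean of 1013 ± 40.9 CPM and rank 95. The 2 genes with the shared 5p strand were thus the lowest of the 6, and together had 2863 CPM in pup 1 and 2737 CPM in pup 2. Since their counts leave out reads of the shared strand, their place below Mir125a is one of uniquely placed reads only. No member gene had a read on the opposite strand in either pup.

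**Figure D2:**
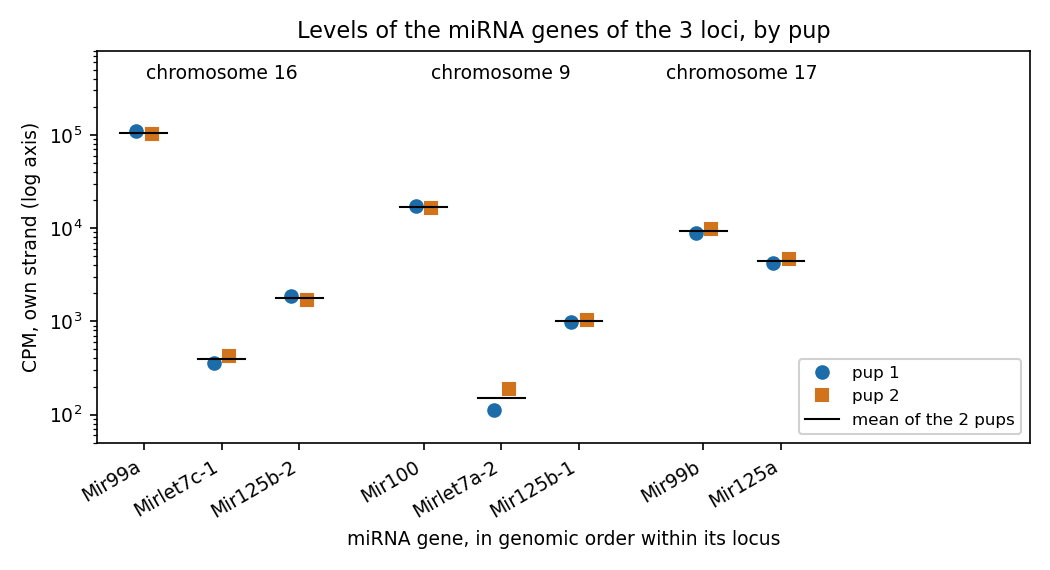
Own-strand CPM of the member genes and of the measured let-7 genes of the same loci on a log axis, by locus in genomic order; circles are pup 1, squares pup 2 and lines their mean. By uniquely placed reads, the miR-99/100 gene is the highest in each locus, from 105955 CPM for Mir99a to 9295 CPM for Mir99b. The let-7 gene of chromosomes 16 and 9 is the lowest, also by uniquely placed reads.

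The order Mir99a, Mir100, Mir99b, Mir125a, Mir125b-2, Mir125b-1 was the same in both pups. Each step was set against a 95% limit from the SD of log2(CPM + 1) between the pups, pooled over detected genes of like abundance. All 5 steps were larger than this limit. The smallest, Mir125b-2 over Mir125b-1, was 0.82 on the log2 scale against a limit of 0.41, and Mir100 over Mir99b was 0.85 against 0.32. This limit holds the spread between pups only; unequal ligation or placement of different sequences, which would be alike in both libraries, is not part of it and was not tested.

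Since the annotated precursors are 65 to 80 bases long, levels were also set per base of precursor. The RNA was below 30 bases, so counts need not grow with precursor length, and per-base values also carry the annotated length. Mir99a reached 1630 ± 84.0 CPM per base, Mir100 209.8 ± 6.92, Mir99b 133 ± 10.6, Mir125a 65.5 ± 4.76, Mir125b-2 25.2 ± 1.83 and Mir125b-1 13.2 ± 0.531 (SD, n = 2). The order was unchanged. In counts, Mir99a lay 6.31-fold ± 0.117 above Mir100, and Mir100 1.81-fold ± 0.205 above Mir99b. Per base these folds were 7.77 ± 0.144 and 1.59 ± 0.179. In counts, Mir125a lay 2.51-fold ± 0.363 above Mir125b-2, and Mir125b-2 1.77-fold ± 0.200 above Mir125b-1. Per base these folds were 2.62 ± 0.380 and 1.92 ± 0.217.

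**Figure D3:**
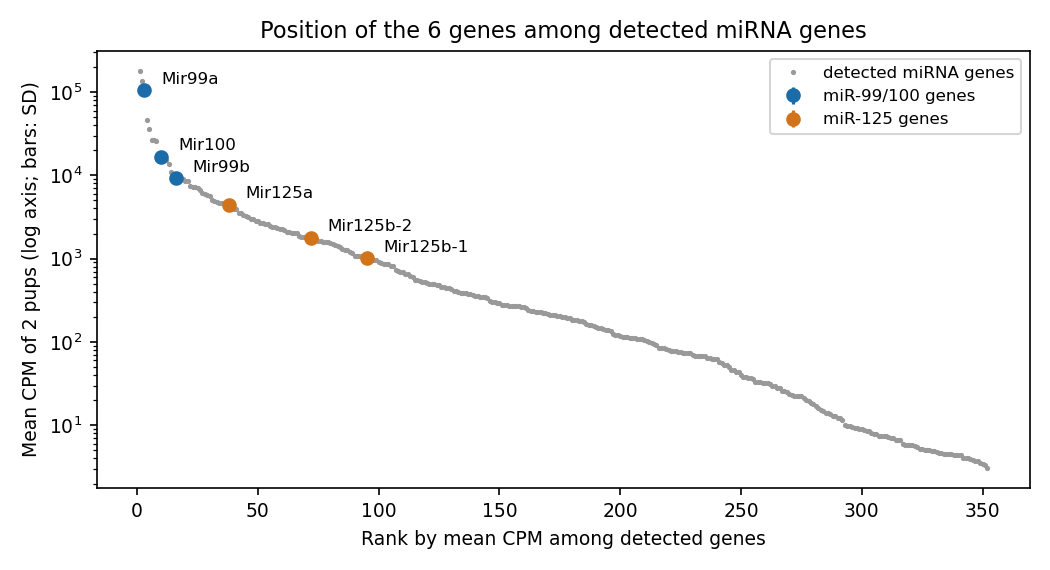
Mean CPM of the 352 detected miRNA genes by rank on a log axis, with the miR-99/100 genes in blue and the miR-125 genes in orange; SD bars are smaller than the points. By uniquely placed reads, the 3 miR-99/100 genes lie at ranks 3, 10 and 16, and the miR-125 genes at 38, 72 and 95.

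The genes nearest in level place the 6 among the other miRNAs of the tissue, with the difference of mean log2(CPM + 1) over the 2 libraries as the measure of likeness. Mir99a stood alone: Mir10a, next above, was 0.36 away and Mirlet7g, next below, 1.21 away, both beyond the limit of 0.32. The other 5 genes had neighbours that did not differ from them beyond the spread. Since neighbours were picked by level, this nearness follows largely from the choice, and genes lie further apart at the top of the ranking. Mir100 lay between Mir30e (0.05 away) and Mir137, a neuronal miRNA (0.06 away). Mir99b lay between Mir149 (0.14) and Mir181c (0.02), and Mir125a between Mir135b (0.01) and Mir598 (0.04). Mir125b-2 lay between Mir101b (0.0043) and Mir484 (0.05), and Mir125b-1 between Mir338, an oligodendrocyte miRNA (0.05), and Mir467d (0.03).

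Within a locus, the ratio of the miR-99/100 gene to the miR-125 gene was far from equal across the loci. On chromosome 16, Mir99a had 58.5 times the counts of Mir125b-2 in pup 1 and 60.2 times in pup 2. On chromosome 9, Mir100 had 17.5 and 15.7 times the counts of Mir125b-1. On chromosome 17, where both 5p strands are found in no other gene of the table, Mir99b had 2.08 and 2.10 times the counts of Mir125a. Per base of precursor the means were 64.8 ± 1.37, 15.97 ± 1.17 and 2.03 ± 0.0148 (SD, n = 2). The values of the 3 loci did not overlap between pups. The ratios of chromosomes 16 and 9 have in the denominator a miR-125b gene without the reads of the shared strand, and that of chromosome 17 does not. The part of this in the difference between loci was not tested.

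**Figure D4:**
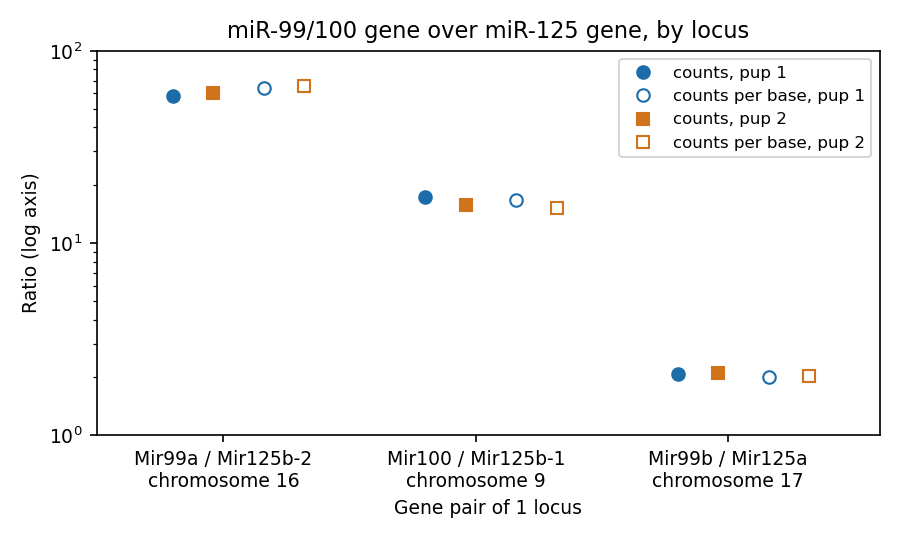
Ratio of the miR-99/100 gene to the miR-125 gene of the same locus on a log axis, from counts (filled) and counts per base of precursor (open), for pup 1 (circles) and pup 2 (squares). From counts, the chromosome 16 ratio is 58.5 and 60.2, that of chromosome 9 17.5 and 15.7 and that of chromosome 17 2.08 and 2.10.

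The let-7 genes of chromosomes 16 and 9, whose family is known to rise as tissues mature, had the fewest uniquely placed reads of their clusters. Mirlet7c-1 had 1143 counts in pup 1 and 1569 in pup 2, or 355 and 429 CPM, a mean of 392 ± 51.8 CPM (SD, n = 2). Mirlet7a-2 had 359 and 683 counts, or 112 and 187 CPM, a mean of 149 ± 53.0 CPM. In counts, Mir125b-2 lay 4.62-fold ± 0.942 above Mirlet7c-1, and Mir125b-1 7.20-fold ± 2.29 above Mirlet7a-2. Per base of precursor these folds were 6.12 ± 1.25 and 8.98 ± 2.85. In counts, Mir99a lay 274-fold ± 50.1 above Mirlet7c-1 and Mir100 121-fold ± 46.7 above Mirlet7a-2. Per base these folds were 396 ± 72.4 and 145 ± 56.0. The 5p strand of Mirlet7c-1 is also made by Mirlet7c-2, and its first 18 bases occur in Mirlet7a-1 and Mirlet7a-2, so reads within these stretches fit several genes as well. The counts of Mirlet7a-2 thus also lack reads within this stretch. RefSeq held a 3p but no 5p strand for Mirlet7a-2, so sharing of its whole 5p strand was not tested. The folds over both let-7 genes are those of uniquely placed reads, not of mature let-7. Mirlet7e of chromosome 17 was not among the measured genes under its GENCODE M21 identifier, so it has no counts of its own here. Reads at its place and strand, counted as opposite-strand reads of Gm25927, came to 4041 CPM in pup 1 and 4158 CPM in pup 2. They are described among the results flagged for a closer look, and whether they come from Mirlet7e was not tested. Of the let-7 genes elsewhere in the genome, the 8 measured ranged from Mirlet7a-1, at 181 ± 71.7 CPM, to Mirlet7g, at 46050 ± 4761 CPM, the gene next below Mir99a in level.

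The relatives outside the loci were compared by sequence and level. miR-10a-5p reads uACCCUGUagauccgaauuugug, and stands 3 edits from miR-100-5p and 4 from miR-99a-5p, with another seed. Mir10b had 187511 CPM in pup 1 and 173833 in pup 2, and Mir10a 140152 and 131759 CPM, both above Mir99a in either pup. In counts, Mir10b lay 1.71-fold ± 0.00341 and Mir10a 1.28-fold ± 0.0101 above Mir99a. Per base of precursor, Mir10b lay 1.63-fold ± 0.00326 above Mir99a, and Mir10a stood at 0.758 ± 0.00599 of Mir99a. The change for Mir10a comes from the annotated lengths alone, 110 bases against 65 for Mir99a, and does not place its level below Mir99a. Of the genes with the miR-125 seed outside the loci, Mir351 on chromosome X, with the 5p strand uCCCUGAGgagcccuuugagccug, had 685 CPM in pup 1 and 1219 CPM in pup 2. These values lay on either side of those of Mir125b-1. Mir6367 and Mir6394 had 0 counts in both pups, which allows up to 0.933 CPM in pup 1 and 0.8195 CPM in pup 2 for uniquely placed reads. In uniquely placed reads, the miR-125 seed genes together had 7772 and 8639 CPM, and the miR-99/100 seed genes 135761 and 128308 CPM. The first sum lacks reads wholly within the strand shared by the miR-125b genes. The 2 sums therefore do not compare the levels of mature miRNAs with these seeds.

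Between the pups the 6 genes differed by no more than 1.12-fold. Log2 ratios of pup 2 over pup 1 (0.5 added to each count) were -0.11 for Mir99a and -0.15 for Mir125b-2 on chromosome 16. They were 0.16 for Mir99b and 0.15 for Mir125a on chromosome 17. On chromosome 9, Mir100 had -0.07 and Mir125b-1 0.08. The genes of chromosome 16 were thus both lower and those of chromosome 17 both higher in pup 2, while those of chromosome 9 had opposite signs. With these totals all 6 absolute log2 ratios were below the median over the 352 detected genes, 0.19, with a median of 0.13 and a largest value of 0.16. That median includes genes of few counts. Over the 100 genes of at least 900 CPM, a level chosen after the values were seen to cover the 6 genes, it was 0.14, and Mir99b, Mir125a and Mir125b-2 lay above it. With TMM scaling, which lowers every ratio, Mir125b-2 reached -0.22. For comparison, Mirlet7a-2 had 0.74, Mirlet7c-1 0.27 and Mir351 0.83.

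An exact two-sided binomial test given the library totals, with Benjamini-Hochberg adjustment over all 413 genes with at least 10 counts, called all 6 genes at 0.05. The background was high: 40.9% of all tested genes were called, and 81.0% of the 100 genes of at least 900 CPM. Mir99a, Mir100 and Mir125b-2 were called lower in pup 2 and Mir99b, Mir125a and Mir125b-1 higher, against 15.3% and 25.7% of tested genes in these directions. These 2 shares include genes of few counts. Shares by direction were not taken among the 100 genes of at least 900 CPM, so neither direction is shown to be more frequent in the 6 genes. Of all calls, 62.7% were higher in pup 2, but 46.4% with TMM scaling and 54.4% with DESeq2 size factors. The test compares 2 libraries, treats reads as independent and covers counting error at most, so at this depth it called Mir100, 1.05-fold higher in pup 1. Adjusted p-values of this exact test were 4.6e-210 for Mir99a (1.08-fold higher in pup 1) and 4.6e-45 for Mir99b (1.12-fold higher in pup 2). They were 2.2e-18 for Mir125a, 1.8e-14 for Mir100 and 6.3e-08 for Mir125b-2. Mir125b-1 passed narrowly in the exact test, with an adjusted p of 0.044. Its call ended under other scalings, at an adjusted p of 0.82 with TMM and 0.39 with DESeq2 size factors, and also without a filter on counts (0.071) and without Mir10b in the totals (0.18). The other 5 kept their call and direction under these 4 settings, a minimum of 50 counts and either-strand counts.

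**Figure D5:**
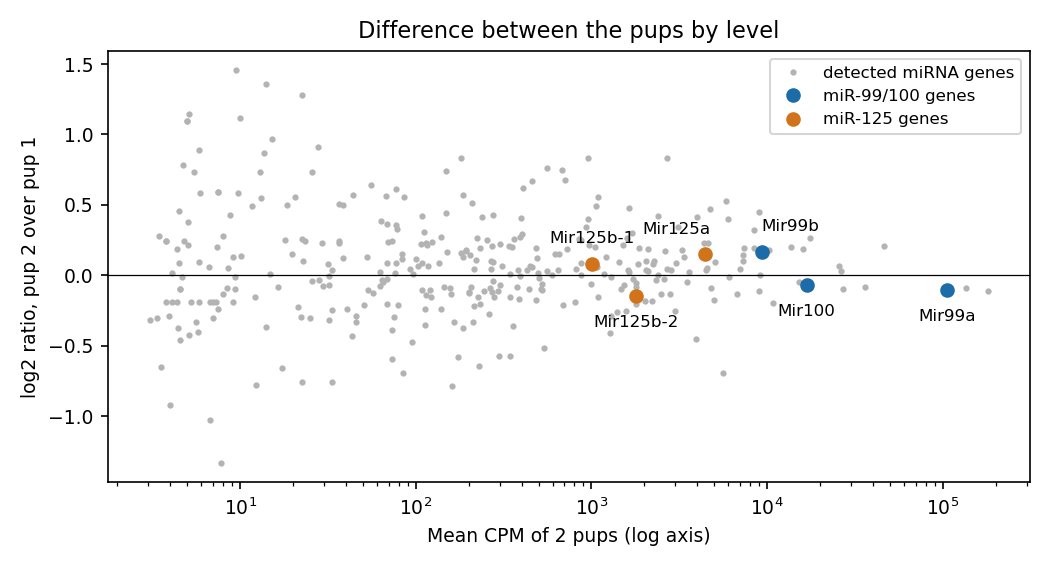
Log2 ratio of pup 2 over pup 1 against mean CPM (log axis) for the 352 detected miRNA genes, with the miR-99/100 genes in blue and the miR-125 genes in orange. The 6 genes lie between -0.15 and 0.16.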

How the data were processed

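The deposited tables give, for each of the 2 libraries, raw read counts of 1973 miRNA genes in 3 columns: either strand, own strand, opposite strand. The build (mm10) and annotation (GENCODE M4) are named in text that came with the tables, and aligner and counter were not given in the sources used here. Read classes that name no gene stayed out of totals: 10.9% of reads were unmapped, 35.5% fitted several places, 1.79% lay outside miRNA genes and none was ambiguous.

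Own-strand counts were used. CPM divides a count by the library's own-strand total and multiplies by 1000000, and 1 count is 0.311 CPM in pup 1 and 0.273 CPM in pup 2. Symbols and positions came from GENCODE M21 (same build; 1894 of 1973 identifiers matched, the others with at most 2 counts). Means and SDs are over 2 pups. SDs of log2(CPM + 1) were pooled in 4 abundance classes of 88 detected genes. Mature strands (6 of 6 genes) and hairpins (4 of 6) came from RefSeq, GRCm38.p6.

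The members, lists and tests were chosen with earlier results of these data known. The rule for named genes took the 6 members, the let-7 genes of their loci, genes sharing a 5p seed with a member, Mir10a, Mir10b and the genes next above and below each member in level. Alternatives were TMM (edgeR 4.0.16) and DESeq2 1.42.0 scaling, a minimum of 50 counts or none, a pseudocount of 0.5, counts of either strand, totals without Mir10b, shares of all reads, values per base, a stretch of 20 bases, and leaving out each pup. Software was R 4.3.3, Python 3.11.15, scipy 1.17.1, numpy 2.4.6, pandas 2.3.3 and matplotlib 3.10.9.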

Additional observations from a re-analysis of the deposited data

Results flagged for a closer look

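Between Mir99b and Mir125a, reads were found on the strand opposite to an annotated gene, in a column that the levels above do not use. At Gm25927 (chromosome 17, 17830343 to 17830459, minus strand, mm10), the opposite-strand counts over both pups were 28218, with 12998 in pup 1 and 15220 in pup 2, against 0 counts on its own strand. A count of 0 allows up to 3 counts. Gm25927 fully covers Mirlet7e, which lies on the plus strand, so these reads have the strand and place of Mirlet7e. Mirlet7e itself was not among the measured genes under its GENCODE M21 identifier. On the own-strand totals they come to 4041 CPM in pup 1 and 4158 CPM in pup 2, a mean of 4099 ± 82.4 CPM (SD, n = 2). In counts this was 0.957 times the value of Mir125a in pup 1 and 0.888 times in pup 2, and Mir99b had 2.17 and 2.36 times as many. Whether the reads come from Mirlet7e was not tested.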

How the results depend on the processing

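The order of the 6 genes, and the 5 steps beyond the spread, held with a pseudocount of 0.5, per base of precursor, with either-strand counts and without either pup. Without 1 pup, the limit was widened but still came from the SD between both pups, so that setting is not independent of the pup left out. In the test between pups, Mir125b-1 lost its call with TMM scaling, DESeq2 size factors, no filter on counts (adjusted p 0.071) and without Mir10b in the totals (0.18), which leaves 5 of 6 genes called in each of the 4. The first 2 and the last move all ratios alike, and no filter adds genes to the adjustment. Signs of the 6 log2 ratios did not change, but the median over them, 0.0076, turned to -0.061 (TMM), -0.034 (DESeq2) and -0.017 (without Mir10b), by construction of the scaling. Without Mir10b in the totals the share of the 6 genes was 17.01% in place of 13.9%, and by locus 13.2% (chromosome 16), 2.17% (chromosome 9) and 1.68% (chromosome 17). As shares of all reads these were 7.06%, 5.46%, 0.901% and 0.697%. Both sets of shares follow from the other totals. Per base of precursor the ratio of Mir99a to Mir125b-2 was 64.8 in place of 59.3, and that of Mir99b to Mir125a 2.03 in place of 2.09, from the precursor lengths. The number of mature strands shared with another gene stayed at 2 with 20 bases. With 2 pups, leaving out 1 cannot move a mean by more than its SD. No paired analysis was possible because there is 1 group. Depth limits none of the 6 genes, the lowest having 3165 counts, but reads of shared strands are not in the counts at any depth.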
